A study of Mus musculus with 6 samples.

Results

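The genes described here are the subunits and inhibitors of NF-kappaB and the Bcl10 and Malt1 components of the CBM complex, read in mouse T cells labelled as deficient in the histone methyltransferase Ezh2. They were chosen by name. The 9 genes are Tnfaip3, Nfkbia, Nfkbid, Nfkb1, Rela, Relb, Rel, Bcl10 and Malt1, and every probe set of the array whose single gene symbol in the platform annotation is one of them was taken. That gave 18 of the 45101 probe sets, which read 8 of the 9 genes. No probe set was assigned to Nfkb1 in the annotation used, so Nfkb1 was not analysed here. Nfkbia had 5 probe sets, Bcl10 had 4, Malt1 had 3, Tnfaip3 had 2, and Nfkbid, Rela, Relb and Rel had 1 each. All 18 passed the filter on dim signals.

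RNA was measured on 6 single-colour Affymetrix mouse arrays, 3 of Ezh2 deficient lymph node T cells and 3 of Ezh2 fl/fl lymph node T cells; by convention fl/fl means both alleles are flanked by loxP sites. Neither a Cre driver nor strain, age, sex, pairing or batch is labelled, and separate animals are not mentioned. The p-values therefore set a group difference only against the scatter among these 6 arrays, moderated over all tested probe sets. That scatter may be technical. Values are quantile normalised intensities. Differences are Ezh2 deficient minus Ezh2 fl/fl on a log2 scale after a pseudocount of 43.3 was added, with two-sided limma tests adjusted by the Benjamini-Hochberg method over 27022 tested probe sets and a threshold of 0.05.

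The signal of the targeted gene was lower in the Ezh2 deficient T cells on every array, without passing the adjusted test. The Ezh2 probe set 1416544_at read 282, 289 and 276 in the Ezh2 deficient arrays, against 579, 684 and 801 in the Ezh2 fl/fl arrays (log2 difference -1.16, SE 0.13, limma unadjusted p = 7.83e-06, adjusted p = 0.0705). The adjusted limma p was under 0.05 with 4 of 15 alternative settings and ran from 0.0306 to 0.263. Which exons were lost, and whether this probe set reads them, is not labelled. Ezh2 fl/fl replicate 1 stood apart on the first principal component, at 58.9 where the other arrays lay between -21.4 and -0.47. Ezh2 deficient replicate 3 stood apart in the inducible heat shock genes Hspa1a and Hspa1b, which were chosen after their values were seen. Hspa1b read 381, 349.5 and 9712 in Ezh2 deficient replicates 1, 2 and 3, against 414, 1555 and 191 in Ezh2 fl/fl replicates 1, 2 and 3. All 10 T cell marker genes with a probe set (Cd3e, Cd2 and others) read 3808 or more on every array.

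NF-kappaB is a family of dimers built from Rela, Rel, Relb and the processed products of Nfkb1 and Nfkb2. In resting T cells the dimers are held in the cytoplasm by inhibitors such as IkappaB-alpha, the product of Nfkbia. Engagement of the T cell receptor assembles the CBM complex, of which Bcl10 and Malt1 are parts and which leads to activation of the IkappaB kinase, destruction of IkappaB-alpha and entry of the dimers into the nucleus. Tnfaip3 encodes A20, a ubiquitin-editing enzyme that ends the signal, and Malt1 is also a protease that cleaves A20.

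Of these genes, Tnfaip3 stood furthest from equality, with the Ezh2 deficient arrays above the Ezh2 fl/fl arrays on both of its probe sets, by 1.46-fold and 1.63-fold. Malt1 came next, at 1.31-fold on its brightest probe set and 1.15-fold and 1.05-fold on the others. Nfkbia, Nfkbid, Rel and most readings of Bcl10 lay within 1.1-fold of equality, and Rela was the only gene whose brightest probe set had a negative difference. None of the 18 probe sets passed the adjusted test, where limma called 0.0037% of all probe sets, which is 1 probe set. At an unadjusted p under 0.05 there were 3 member probe sets higher and 0 lower, both Tnfaip3 probe sets and 1 of Malt1, against 7.22% of all tested probe sets in either direction, 3.84% on the higher and 3.38% on the lower side. The groups did not overlap for 2 of the 18, both of Tnfaip3 and both higher, a share near the 13.1% of all tested probe sets (6.55% higher and 6.54% lower). With an Ezh2 deficient array left out, that count was 5 for replicate 1, 4 for replicate 2 and 7 for replicate 3, against 22.0%, 23.0% and 22.2% of all tested probe sets. With an Ezh2 fl/fl array left out, it was 2 for replicate 1, 6 for replicate 2 and 5 for replicate 3, against 23.4%, 24.9% and 24.7% of all tested probe sets. The count at an unadjusted p under 0.05 was 5 without Ezh2 deficient replicate 3, against 5.80% of all tested probe sets, and 2 without Ezh2 deficient replicate 1, against 5.40%. The difference was positive for 14 of the 18 probe sets, with a median of 0.06, against 49.3% positive and a median of -0.003 over all tested probe sets. Probe sets of the same gene share their transcript and are not independent.

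**Figure D1:**
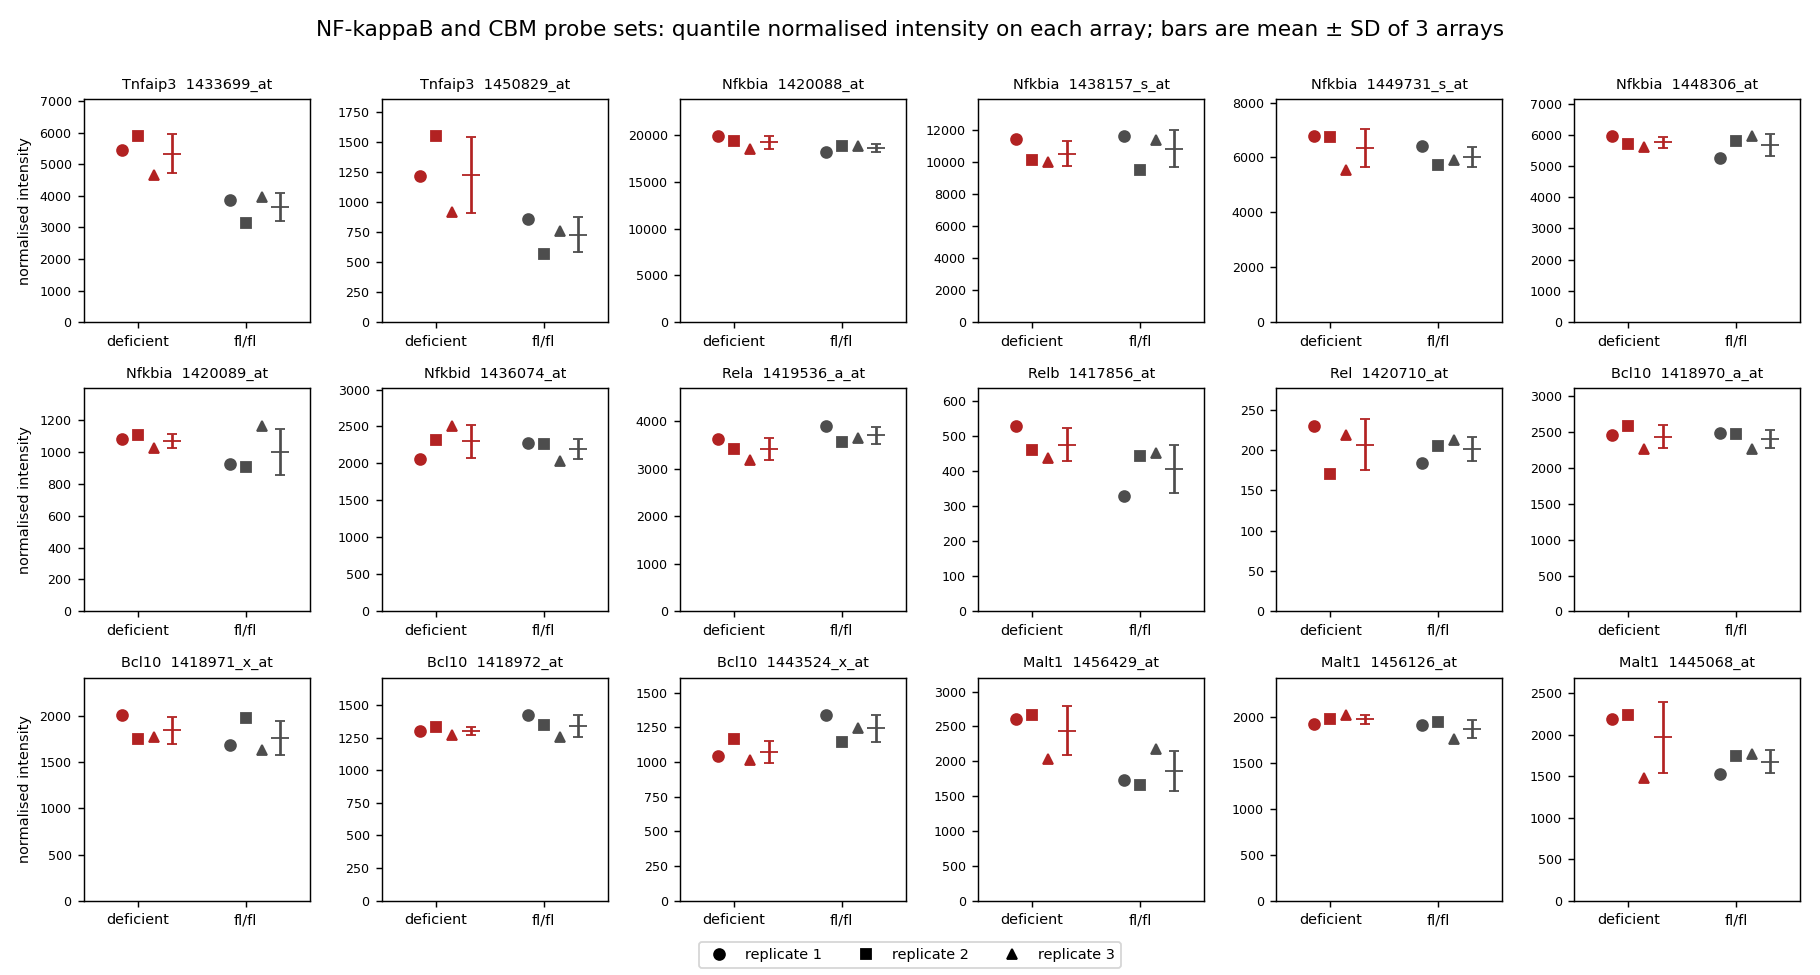
Quantile normalised intensity (vertical axis, linear, from 0) of the 18 probe sets on each array, with Ezh2 deficient arrays in red on the left and Ezh2 fl/fl arrays in grey on the right; marker shapes are replicates and bars are mean ± SD of 3 arrays. Only the 2 Tnfaip3 panels show every Ezh2 deficient array above every Ezh2 fl/fl array.

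**Figure D2:**
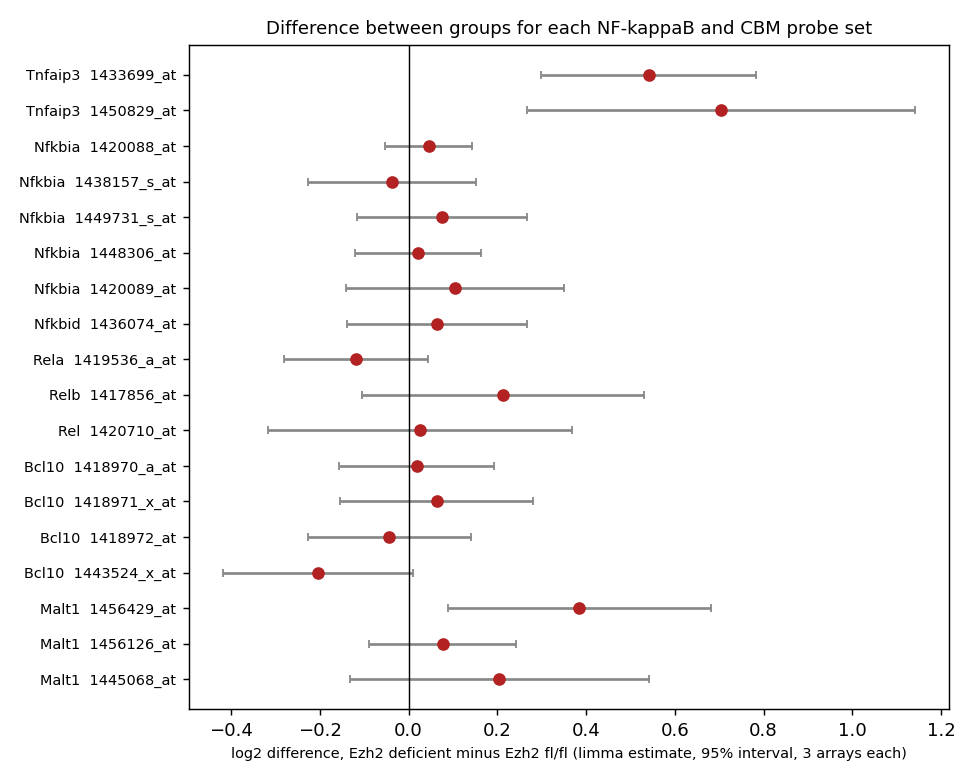
Log2 difference, Ezh2 deficient minus Ezh2 fl/fl, for each of the 18 probe sets with the limma 95% interval, 3 arrays each. The intervals of both Tnfaip3 probe sets and of Malt1 1456429_at lie above 0, before any adjustment, and the other 15 hold 0.

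Several of these genes are textbook targets of NF-kappaB itself, so their start-site regions are shown. RefSeq windows (GRCm38.p6) of 300 bases, from 250 before to 50 after a start site, were read for Tnfaip3, Nfkbia, Nfkbid, Rela, Rel and Bcl10. Nfkb1, Relb and Malt1 were not read in this way and are not shown. The 10-base kappaB consensus, searched on both strands, was found in at least 1 window of 5 of these 6 genes, all except Rela, whereas 9.55% of the 27025 genes in the table hold it. Tnfaip3 and Nfkbid have several windows in the table, and a gene counts once if any of its windows holds the motif. A second pattern with free middle bases was found in all 6 genes, against 22.9% of all genes. The second pattern overlaps the consensus in those 5 genes. It misses some of the consensus matches in Tnfaip3, Nfkbid and Rel, so it is not a looser form of the consensus. A match describes letters and says nothing of binding in these cells. The 250 bases before the start site are printed 5′ to 3′ on the strand of the gene for the windows with a kappaB match, with the matched bases in capitals.
Tnfaip3, chr10:19015411-19015660, minus strand: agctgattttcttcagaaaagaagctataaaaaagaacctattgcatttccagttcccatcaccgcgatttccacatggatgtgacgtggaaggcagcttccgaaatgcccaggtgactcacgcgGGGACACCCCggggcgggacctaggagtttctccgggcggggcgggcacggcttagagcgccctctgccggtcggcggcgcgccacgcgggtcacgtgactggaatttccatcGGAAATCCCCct
Nfkbia, chr12:55492648-55492897, minus strand: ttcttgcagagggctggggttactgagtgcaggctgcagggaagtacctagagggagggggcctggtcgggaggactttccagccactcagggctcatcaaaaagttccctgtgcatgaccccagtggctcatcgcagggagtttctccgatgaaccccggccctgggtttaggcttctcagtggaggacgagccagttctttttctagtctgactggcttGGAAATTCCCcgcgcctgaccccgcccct
Nfkbid, chr7:30422156-30422405, plus strand: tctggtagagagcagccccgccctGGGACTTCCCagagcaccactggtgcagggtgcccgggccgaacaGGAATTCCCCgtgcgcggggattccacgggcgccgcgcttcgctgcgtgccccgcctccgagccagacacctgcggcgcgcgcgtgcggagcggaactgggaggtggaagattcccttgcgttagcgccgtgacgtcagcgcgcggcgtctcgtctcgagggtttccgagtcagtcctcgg
Rel, chr11:23770970-23771219, minus strand: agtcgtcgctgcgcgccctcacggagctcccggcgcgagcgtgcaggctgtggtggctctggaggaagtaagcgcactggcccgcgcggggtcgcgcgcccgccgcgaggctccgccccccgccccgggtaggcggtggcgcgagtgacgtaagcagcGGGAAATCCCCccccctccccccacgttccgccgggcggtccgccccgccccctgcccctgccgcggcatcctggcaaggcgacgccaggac
Bcl10, chr3:145924012-145924261, plus strand: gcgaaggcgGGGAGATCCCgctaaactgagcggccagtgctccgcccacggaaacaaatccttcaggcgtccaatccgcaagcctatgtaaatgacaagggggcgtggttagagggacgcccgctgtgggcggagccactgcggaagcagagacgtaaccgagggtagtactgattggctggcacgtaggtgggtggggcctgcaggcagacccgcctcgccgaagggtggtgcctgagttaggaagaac
In Tnfaip3 the matches begin 125 and 12 bases before the start site, in Nfkbia 29 bases before it, in Nfkbid 226 and 181, in Rel 92 and 91 (the matches overlap) and in Bcl10 241. Tnfaip3 and Nfkbia both carry a match close to the start site, while the other Tnfaip3 window holds 0 matches. Any part of these matches in the group differences was not tested.

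Among the inhibitors, Tnfaip3 was the gene whose arrays separated by group. Its brighter probe set, 1433699_at, read 5445, 5879 and 4659.8 in Ezh2 deficient replicates 1, 2 and 3, against 3854, 3147 and 3946 in Ezh2 fl/fl replicates 1, 2 and 3. The lowest Ezh2 deficient array, replicate 3, lay above the highest Ezh2 fl/fl array. The means were 5328 ± 618 in the Ezh2 deficient and 3649 ± 437 in the Ezh2 fl/fl arrays (SD, n = 3 each), a log2 difference of 0.54 (SE 0.11, 95% interval 0.30 to 0.78, limma unadjusted p = 0.000662, adjusted p = 0.344). It ranked 51 of the 27022 tested probe sets by p. The dimmer probe set, 1450829_at, read 1212, 1544 and 913 in the Ezh2 deficient arrays, against 853, 568 and 761 in the Ezh2 fl/fl arrays. Here the nearest arrays of the groups, Ezh2 deficient replicate 3 and Ezh2 fl/fl replicate 1, were close to each other. The log2 difference was 0.70 (SE 0.19, 95% interval 0.27 to 1.14, adjusted p = 0.558 by limma). Both probe sets put the arrays of the Ezh2 deficient group in the order replicate 2, 1, 3 from high to low and had their lowest value on Ezh2 fl/fl replicate 2.

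Nfkbia, by contrast, was nearly level. Its brightest probe set, 1420088_at, lay at the 99.6th percentile of mean log2 signal and read 19843, 19325 and 18468 in the Ezh2 deficient arrays, against 18155, 18845 and 18845 in the Ezh2 fl/fl arrays. The ranges overlapped and the log2 difference was 0.05 (SE 0.04, 95% interval -0.05 to 0.14, adjusted p = 0.847 by limma), so that the interval reached from 0.964-fold to 1.10-fold. Near the top of the scale a probe set may respond less than in proportion to its RNA, which was not tested. The dimmer probe set 1448306_at read 5948, 5705 and 5603 in the Ezh2 deficient arrays, against 5267, 5793 and 5948 in the Ezh2 fl/fl arrays, with a log2 difference of 0.02 (SE 0.06, 95% interval -0.12 to 0.16). The other 3 Nfkbia probe sets had log2 differences of -0.04, 0.07 and 0.10. The names of the first and second of these end in _s_at, which marks probe sets that can match several transcripts. All 5 had overlapping groups.

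Nfkbid encodes IkappaB-NS, an atypical inhibitor that acts in the nucleus. Its probe set 1436074_at read 2059, 2323 and 2511 in the Ezh2 deficient arrays, against 2270.1, 2268 and 2034 in the Ezh2 fl/fl arrays. Each group held both high and low arrays, with Ezh2 deficient replicate 3 the highest of all 6. The log2 difference was 0.06 (SE 0.09, 95% interval -0.14 to 0.27, adjusted p = 0.899 by limma).

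Tnfaip3 was also set against the other members on the same array. The log2 signal of its brighter probe set minus the median of the other 7 members, each at its brightest probe set, was 1.13, 1.17 and 1.03 in Ezh2 deficient replicates 1, 2 and 3, against 0.75, 0.47 and 0.84 in Ezh2 fl/fl replicates 1, 2 and 3. Every Ezh2 deficient array lay above every Ezh2 fl/fl array. The group means differed by 0.42. Tnfaip3 was picked here because its arrays already separated, so these values are a description without a test. The difference largely cancels a scaling of whole arrays, though not exactly because of the pseudocount. The size of each value by itself has no meaning since it sets different probes side by side.

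Since the groups did not overlap on either Tnfaip3 probe set, leaving out an array could move only the size of the difference and not its side. On 1433699_at it ran from 0.44 without Ezh2 fl/fl replicate 2 to 0.64 without Ezh2 deficient replicate 3, and on 1450829_at from 0.52 without Ezh2 deficient replicate 2 to 0.89 without Ezh2 deficient replicate 3. With the array apart on the first principal component, Ezh2 fl/fl replicate 1, left out, the differences were 0.58 and 0.83. In each group the array with the most Hspa1b signal, Ezh2 deficient replicate 3 and Ezh2 fl/fl replicate 2, was also the array with the least Tnfaip3 signal on both probe sets. Their part in the Tnfaip3 values was not tested.

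**Figure D3:**
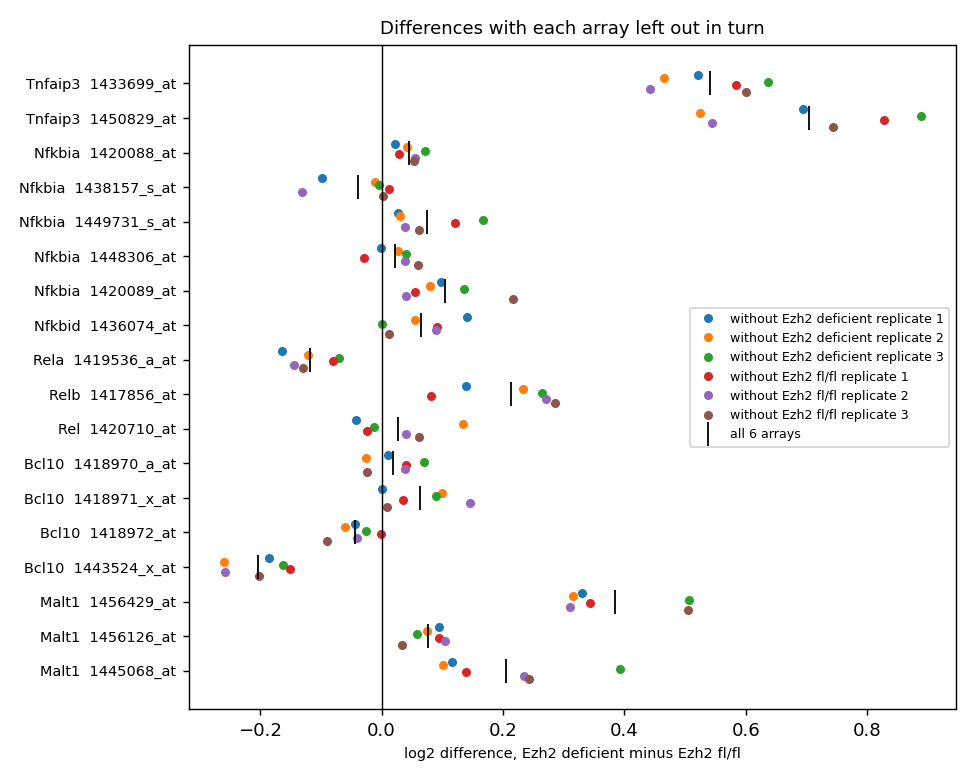
Log2 difference, Ezh2 deficient minus Ezh2 fl/fl, of each probe set with all 6 arrays (black bars) and with each array left out in turn (coloured points). The Tnfaip3 points run from 0.44 to 0.89, and their side is fixed because the groups do not overlap. Those of Malt1 1456429_at run from 0.31 to 0.51, while points of Nfkbia, Nfkbid, Rel and Bcl10 probe sets fall on both sides of 0.

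The Rel-family subunits showed no separation by group. Rela encodes p65, a subunit with a strong activation domain, and its probe set 1419536_a_at read 3637, 3423 and 3182 in the Ezh2 deficient arrays, against 3909, 3568 and 3642 in the Ezh2 fl/fl arrays. The groups overlapped through Ezh2 deficient replicate 1. The log2 difference was -0.12 (SE 0.07, 95% interval -0.28 to 0.04, adjusted p = 0.752 by limma), or 0.921-fold. Relb, the main transcriptional partner of the Nfkb2 product in the non-canonical pathway, read 529, 459 and 438 on 1417856_at in the Ezh2 deficient arrays, against 327, 442 and 451 in the Ezh2 fl/fl arrays. Ezh2 deficient replicate 1 was the highest and Ezh2 fl/fl replicate 1 the lowest, with the other 4 close together between them. Relb had a log2 difference of 0.21 (SE 0.14, 95% interval -0.11 to 0.53, adjusted p = 0.778 by limma), which became 0.08 when the low array was left out and 0.14 when the high one was. Rel, which encodes c-Rel, a subunit prominent in lymphocytes, was dim on 1420710_at, at 230.2, 170.3 and 219 in the Ezh2 deficient arrays, against 184, 205 and 213 in the Ezh2 fl/fl arrays. Both groups covered much the same range. The log2 difference was 0.03 (SE 0.15), and its 95% interval of -0.32 to 0.37 spans 0.803-fold to 1.29-fold.

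Of the CBM components, Malt1 leaned higher and Bcl10 did not. Malt1 on 1456429_at read 2614, 2667 and 2033 in the Ezh2 deficient arrays, against 1733, 1654 and 2182 in the Ezh2 fl/fl arrays. Ezh2 deficient replicate 3 and Ezh2 fl/fl replicate 3 crossed, and the remaining arrays were apart. The log2 difference was 0.39 (SE 0.13, 95% interval 0.09 to 0.68, limma unadjusted p = 0.0162, adjusted p = 0.623). That limma value missed 0.05 when Ezh2 deficient replicate 1 was left out (0.0591), likewise for Ezh2 deficient replicate 2 (0.0665) or Ezh2 fl/fl replicate 2 (0.0595), with differences still positive. On 1445068_at Malt1 read 2190.2, 2237 and 1473 in the Ezh2 deficient arrays, against 1522, 1743 and 1761 in the Ezh2 fl/fl arrays. Ezh2 deficient replicate 3 was the lowest of all 6 arrays here and the other Ezh2 deficient arrays were the highest, and the log2 difference was 0.20 (SE 0.15). It became 0.39 without that array, and 0.12 or 0.10 when replicate 1 or 2 of the Ezh2 deficient group was left out instead. On 1456126_at Malt1 was tight and almost level, at 1925, 1982 and 2027 in the Ezh2 deficient arrays, against 1919.7, 1945 and 1760.1 in the Ezh2 fl/fl arrays, with a log2 difference of 0.08 (SE 0.07, 95% interval -0.09 to 0.24). The 3 Malt1 probe sets thus differ in size but not in sign, and which parts of the transcript they read was not examined.

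Bcl10, the adaptor that forms filaments and recruits Malt1, went both ways across its probe sets. The brightest, 1418970_a_at, read 2461, 2589.7 and 2260.2 in the Ezh2 deficient arrays, against 2480.1, 2472 and 2262 in the Ezh2 fl/fl arrays. The groups were almost congruent, with a log2 difference of 0.02 (SE 0.08, 95% interval -0.16 to 0.19, adjusted p = 0.969 by limma). The probe set 1443524_x_at had the largest of the 4 Bcl10 differences, at 1044, 1166 and 1012 in the Ezh2 deficient arrays, against 1341, 1145 and 1244 in the Ezh2 fl/fl arrays. It gave -0.20 (SE 0.09, adjusted p = 0.703 by limma), with the groups overlapping at Ezh2 deficient replicate 2 and Ezh2 fl/fl replicate 2. The remaining Bcl10 probe sets, 1418971_x_at and 1418972_at, were at 0.06 and -0.04. Names ending in _x_at, as those of 1443524_x_at and 1418971_x_at do, mark probe sets that can match other transcripts.

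Among the Ezh2 deficient arrays, replicate 3 was often the lowest. It was the lowest of the 3 on 14 of the 18 probe sets, among them both of Tnfaip3, all 5 of Nfkbia and those of Rela and Relb, whereas replicates 1 and 2 were lowest on 2 each. With each gene counted once, at its brightest probe set, it was the lowest for 6 of 8 genes. Over all tested probe sets replicate 3 was the lowest for 33.8%. Nfkbid and Malt1 1456126_at had their highest value on that array instead. This was noticed in the data and has no test, and the same array carried the high Hspa1a and Hspa1b signals.

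The rest of the pathway was taken from a list of 41 other genes, of which 37 had a tested probe set, each read at its brightest. None was called by limma, where 0% of the 12275 tested genes were called at their brightest probe set. At an unadjusted p under 0.05 there were 0 higher and 0 lower, against 3.92% of all tested genes higher, 4.29% lower and 8.21% in either direction. The differences ran from -0.24 to 0.34, with 26 positive and 11 negative and a median of 0.06, against 46.9% positive and a median of -0.01 over all tested genes. With an array left out 20 to 28 were positive, and with the other settings 23 to 32. The summed signal of the 37 genes was 73151 to 78072 in the Ezh2 deficient arrays. In Ezh2 fl/fl replicates 1, 2 and 3 it was 67666, 74169 and 74837, so the groups overlapped and replicate 1 was the lowest. The groups did not overlap for 4 genes higher and 2 lower, against 6.4% and 7.8% of all tested genes. The smallest p belonged to Bcl3, an atypical nuclear IkappaB, which read 738, 681 and 579.5 in the Ezh2 deficient arrays, against 412, 649 and 504 in the Ezh2 fl/fl arrays (log2 difference 0.34, adjusted p = 0.703 by limma). Ube2n, the ubiquitin conjugating enzyme for lysine 63 chains, was next with a log2 difference of 0.21 (adjusted p = 0.710) and groups that did not overlap. Of 7 known Malt1 protease substrates on a list without Tnfaip3, 3 had positive and 4 had negative differences and 0 had an unadjusted p under 0.05. The deubiquitinase gene Cyld was at 0.11 and Rbck1, a subunit of the linear ubiquitin ligase, at 0.10.

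Target genes of NF-kappaB in lymphocytes had differences in both directions. Of 40 listed, 36 were tested and 0 were called. Of these 21 were positive and 15 negative, with a median of 0.06, against 46.9% positive over all tested genes. At an unadjusted p under 0.05, 4 were higher and 4 lower, against 3.92% and 4.29% of all tested genes. Without overlap stood 4 higher and 3 lower, against 6.4% and 7.8%. Rgs1, which dampens chemokine receptor signals, read 2552, 2709 and 2418 in the Ezh2 deficient arrays, against 1895, 1917 and 1341 in the Ezh2 fl/fl arrays (log2 difference 0.58, adjusted p = 0.427 by limma). The chemokine gene Cxcl10, also a target of interferon signalling, read 715, 373 and 502 in the Ezh2 deficient arrays, against 205, 268 and 288 in the Ezh2 fl/fl arrays (log2 difference 0.92, adjusted p = 0.455). The groups did not overlap for either. The other genes higher at an unadjusted p under 0.05 were the cytokine genes Il21 at 0.52, with overlap, and Ifng at 0.38, without it. These and the following genes were named after their values were seen. On the lower side stood all 4 genes with an unadjusted p under 0.05, which were Tnfrsf4, a costimulatory receptor, at -0.27, the cytokine genes Lta and Tnf, each at -0.35, and Ier3 at -0.53. The groups overlapped for Ier3 alone among these 4.

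**Figure D4:**
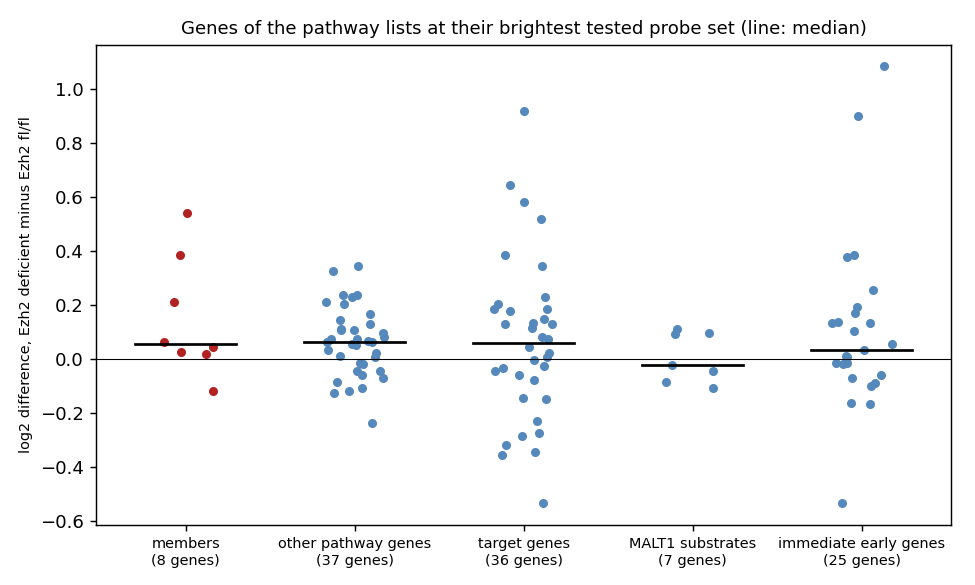
Log2 difference, Ezh2 deficient minus Ezh2 fl/fl, of each tested gene at its brightest probe set, for the 8 members measured, 37 other pathway genes, 36 target genes, 7 Malt1 substrates and 25 immediate early genes; black lines are medians. The medians lie between -0.02 and 0.06, and points of every list fall on both sides of 0.

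Tnfaip3 and Nfkbia are also induced quickly in handled or stimulated cells, so immediate early and handling response genes were read beside them. Of 25 tested, 0 were called, and 15 were positive and 10 negative, against 46.9% positive over all tested genes. At an unadjusted p under 0.05, 4 were higher and 2 lower, against 3.92% and 4.29% of all tested genes. The groups did not overlap for 4 higher and 1 lower, against 6.4% and 7.8%. Cd69, an early activation receptor, read 9405, 9789 and 8368 in the Ezh2 deficient arrays, against 7350.4, 6803 and 6876 in the Ezh2 fl/fl arrays (log2 difference 0.39, adjusted p = 0.311 by limma), and Ier5 was at -0.16 (adjusted p = 0.633). The other 3 higher genes, named after their values were seen, were Egr2 at 0.26, the phosphatase gene Dusp1 at 0.17 and Ppp1r15a at 0.13. The other lower gene was Ier3 at -0.53, with overlap, which is also on the list of target genes. Fos and Jun, also named after their values were seen, were at 0.01 (SE 0.04) and -0.02 (SE 0.05). The summed signal of the 26 genes with a probe set was 111393 to 114098 in the Ezh2 deficient arrays and 103166 to 109210 in the Ezh2 fl/fl arrays. Without Hspa1a and Hspa1b the sums overlapped, at 102704 to 113308 in the Ezh2 deficient and 101417 to 108711 in the Ezh2 fl/fl arrays. The part of these genes in the Tnfaip3 values was not tested.

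Markers of other cell types were read in the same way, and some of them separated the groups as Tnfaip3 did. The summed signal of 7 B cell markers was 1007 to 1058 in the Ezh2 deficient and 979.9 to 1088 in the Ezh2 fl/fl arrays, with 4 of the 7, among them Cd79a and Blnk, under the filter on dim signals. That of 10 dendritic cell and macrophage markers was 1405 to 1543 in the Ezh2 deficient arrays, below the 1577 to 1902 of the Ezh2 fl/fl arrays, and 3 of the 10 (Flt3, Cd14 and Itgam) were under the filter. No marker of any list had a signal of 0. Among the dendritic cell and macrophage markers Csf1r, the receptor for a macrophage growth factor, was at -0.42 on its chosen probe set (adjusted p = 0.632 by limma). It was at 0.29 and 0.12 on its others. The Csf1r probe set at 0.12 averaged 336 in the Ezh2 deficient and 298 in the Ezh2 fl/fl arrays. The chosen one averaged 264 and 371, so both were almost equally bright. The separation of the summed signal rests on this choice, since with the other probe set the groups overlap. Zbtb46, a dendritic cell transcription factor, was at -0.21 on its chosen probe set and at -0.21 and 0.15 on its others.

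The sum of 6 natural killer cell markers was 7981 to 8483 in the Ezh2 deficient and 7817 to 9073 in the Ezh2 fl/fl arrays, and was mostly Nkg7, a cytotoxic granule gene at -0.09. Of the 4 tested, 3 were positive, with a median of 0.30. The other 2, Ncr1 and Klra8, were under the filter on dim signals. Ncr1 averaged 98.1 in the Ezh2 deficient and 118.7 in the Ezh2 fl/fl arrays, and Klra8 42.2 and 46.2. Gzma, which encodes granzyme A, read 338, 255 and 324 in the Ezh2 deficient arrays, against 131, 210.4 and 212 in the Ezh2 fl/fl arrays (log2 difference 0.63, adjusted p = 0.584 by limma). Klre1, a killer cell receptor gene, was at 0.34 (adjusted p = 0.712), and the groups did not overlap for either gene.

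The sum of 6 regulatory T cell markers was 6499 to 7900 in the Ezh2 deficient and 7078 to 7261 in the Ezh2 fl/fl arrays, with 2 positive and 4 negative differences and a median of -0.23. Ctla4, an inhibitory receptor gene that activated T cells also express, read 2104, 2202 and 1725 in the Ezh2 deficient arrays, against 1536, 1565 and 1429 in the Ezh2 fl/fl arrays (log2 difference 0.40, adjusted p = 0.520 by limma). Its Ezh2 deficient arrays ran in the order replicate 2, 1, 3 from high to low, as those of Tnfaip3 did. Tnfrsf18, a costimulatory receptor gene, was at -0.27 (adjusted p = 0.520), again without overlap. The rest of this list is named after its values were seen. Foxp3 was at -0.28, also without overlap, Il2ra at -0.28, Ikzf4 at -0.18 and Ikzf2 at 0.28.

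The sum of 6 stromal markers was 1652 to 1701 in the Ezh2 deficient and 1568 to 2030 in the Ezh2 fl/fl arrays, and 2 of the 6 (Col3a1 and Cdh5) were under the filter. Pecam1, an endothelial adhesion gene, was at -0.20 and the collagen gene Col1a1 at 0.29, both without overlap. Among the B cell markers the smallest p belonged to Pax5 at 0.33 and Cd79b at -0.10, and among the T cell markers to Cd5 at 0.13 and Cd28 at 0.17. In bulk RNA a different number of cells of a type and a different level per cell cannot be told apart, and the part of these marker signals in the Tnfaip3 values was not tested.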

How the data were processed

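RNA of 6 samples was read on single-colour Affymetrix arrays. The authors deposited linear intensities, with 1 value for each probe set on each array. The software behind them is not given in the sources used here. The deposited trimmed mean, leaving out 2% at each end, was 500.002 on every array to 3 decimals, and medians ran from 163.3 to 188.1. The arrays were quantile normalised and turned into log2(intensity + 43.3), the pseudocount being the 20th percentile of positive values, so that fold changes of dim probe sets are understated. The 64 control probe sets and those under the 40th percentile of mean log2 signal were left out. limma (version 3.58.1, R 4.3.3) fitted the group difference with an intensity trend and 4 residual degrees of freedom. The step was run on simulated data with independent normal scatter. How often it recovered differences as small as those of the members is not given here. The number of arrays limits the precision. The members and lists were chosen with earlier results of these data known. Named genes were every member probe set, Ezh2, the genes of smallest p in each list where none was called (2 per list), and the 4 genes nearest to Tnfaip3; others are marked as named after their values were seen. Alternatives covered scaling, pseudocount, filter, eBayes settings, array weights and each array left out. Gene names came from the platform annotation, in which 34945 probe sets had 1 symbol.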

Additional observations from a re-analysis of the deposited data

How the results depend on the processing

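With each of the 15 alternatives tried, 0 of the member probe sets passed the adjusted test, and both Tnfaip3 probe sets stayed positive with an unadjusted limma p under 0.05. Their sign could not change with an array left out, since their groups did not overlap. The adjusted p of Tnfaip3 1433699_at ran from 0.205 to 0.779. The count of all called probe sets was 3 with the deposited scaling, with robust eBayes and with array weights, 2 with median centring, and 1 to 6 with an array left out (6 when Ezh2 deficient replicate 2 was dropped, 3 for Ezh2 fl/fl replicate 1). Member probe sets without overlap numbered 4 with median centring, against 14.4% of all tested probe sets, and 2 to 7 with an array left out, against 22.0% to 24.9%. Those at an unadjusted p under 0.05 numbered 2 to 5 with an array left out, against 5.40% to 8.20%. The median member difference was 0.093 with the deposited scaling, 0.16 with median centring, which moves the median of all tested probe sets to 0.05, and 0.025 to 0.071 with an array left out. Differences near 0 changed sign. With the deposited scaling Rel was at -0.035 and Nfkbia 1438157_s_at at 0.015, and with median centring Nfkbia 1438157_s_at was at 0.082 and Bcl10 1418972_at at 0.031. With an array left out Rel ran from -0.043 to 0.13, Nfkbia 1448306_at from -0.029 to 0.059, Nfkbia 1438157_s_at from -0.13 to 0.013, Bcl10 1418970_a_at from -0.026 to 0.070 and Nfkbid from -6.1e-05 to 0.14. No cause of these moves was tested. No paired analysis was possible because the titles carry numbers that no 2 samples share.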

Other observations

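The 4 genes whose values on the 6 arrays were nearest to those of Tnfaip3 1433699_at, by the root mean square difference between centred log2 values, were Letm1 at 0.0451, the chemokine gene Xcl1 at 0.0837, Bend5 at 0.0860 and Psmf1, a proteasome inhibitor, at 0.0881. All were dim. Letm1, which encodes a protein of the inner mitochondrial membrane, read 222, 228 and 171 in the Ezh2 deficient arrays, against 130.3, 96.7 and 142 in the Ezh2 fl/fl arrays, while its other 3 tested probe sets had log2 differences of -0.01, 0.08 and 0.15. Psmf1 was at 0.52 on the near probe set and at 0.13, 0.01 and -0.11 on its others. Nearness is a description over 6 arrays, and Tnfaip3 and these genes share those arrays.

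Among 8 heat shock genes chosen after the data were seen, Ezh2 deficient replicate 3 was the highest of the 6 arrays for 5. It stood 24.0-fold above the mean of the other Ezh2 deficient arrays for Hspa1a, 26.6-fold for Hspa1b and 1.81-fold for the co-chaperone gene Dnajb1. Dnajb1 read 5055, 4848 and 8940.0 in Ezh2 deficient replicates 1, 2 and 3, against 3670.2, 7535 and 4227 in Ezh2 fl/fl replicates 1, 2 and 3, so that the second highest array was again Ezh2 fl/fl replicate 2. Hspa8, Hsph1 and Hspe1 did not have their highest value on that array. On the 18 NF-kappaB and CBM probe sets the same array was mostly the lowest of its group, as given above.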
